A study of Mus musculus with 10 samples.

Results

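miR-124 is a microRNA (miRNA) of neurons, and its 2 mature arms, miR-124-3p and miR-124-5p, were followed here through the small RNA of mouse cortex at stage E13.5. In the deposited read-count table an entry joins a mature miRNA name to a suffix that spells the bases found beyond its 3′ end, or says that there were none. All 68 entries named miR-124-3p or miR-124-5p were taken, whatever the suffix, out of 19414 entries in the table. Of these, 43 belonged to miR-124-3p and 25 to miR-124-5p, which were 2 of 1432 mature miRNA names.

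The 10 libraries came from 5 groups of 2 each. Dicer KO was cortex with a conditional knock-out of Dicer, set against Dicer WT, the wild type of that line. DGCR8 KO was cortex with a conditional knock-out of DGCR8, set against DGCR8 HET, the heterozygote, and DGCR8 WT, the wild type of the second line. Nothing used here names the driver of the deletion, the proportion of recombined cells, the alleles carried by the wild types, the strain, the sex or whether a library holds 1 embryo or several. The spread between the 2 libraries of a group may therefore be technical. Each library was made from 1000 ng of total RNA of the cortex, and a small RNA library gives no reading of Dicer or DGCR8 themselves, so the knock-outs could not be checked against their targeted genes.

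DGCR8 works with the nuclease Drosha in the nucleus, where the pair cuts a hairpin out of a long primary transcript. Dicer then cuts off the loop of the hairpin in the cytoplasm, which leaves a duplex of a 5p and a 3p arm, and 1 of the arms is usually retained in an Argonaute protein. For miR-124 that arm is the 3p one, which binds many transcripts of non-neuronal cells and is switched on as cortical progenitors become neurons. The 3′ end of a mature miRNA can vary through the position of the Drosha or Dicer cut, through trimming and through bases that terminal nucleotidyl transferases add.

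Mature miR-124 comes from 3 hairpin genes in the mouse, and the table has a single name per arm for all of them, so their products could not be told apart. In the GENCODE annotation of GRCm38, Mir124a-1 lies on the plus strand of chromosome 14 within the non-coding host gene Mir124a-1hg, and in an exon of 1 of its 4 transcripts. Mir124a-2 lies on the plus strand of chromosome 3 within Mir124-2hg, whose 7 transcripts hold no exon that covers it whole. Mir124a-3 lies on the plus strand of chromosome 2 and overlaps the start of Gm27032 by 3 bases. A different miRNA gene, Mir3078, lies 443 bases downstream of Mir124a-1, on the same strand and in an exon of 1 of the 4 transcripts of the same host.

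The mature sequences below are those of miRNAs whose levels ran most like those of either arm over the libraries, and of the most abundant members of a neuron-enriched list. They are shown so that their seeds, the bases 2 to 8 that pair with targets, can be compared. They are credited to RefSeq (GRCm38.p6), with 11 of 14 names matched, and miR-124-3p, miR-124-5p and miR-3078-5p are named only. Capitals mark the seed, and the 11 miRNAs have 11 different seeds.
miR-138-5p: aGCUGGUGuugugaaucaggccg
miR-3059-5p: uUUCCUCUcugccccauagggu
miR-136-3p: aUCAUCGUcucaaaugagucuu
miR-551b-3p: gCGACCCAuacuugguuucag
miR-376a-5p: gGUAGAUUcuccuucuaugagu
miR-181a-1-3p: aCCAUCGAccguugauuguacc
miR-490-3p: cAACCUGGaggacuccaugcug
miR-129-5p: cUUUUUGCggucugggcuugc
miR-128-3p: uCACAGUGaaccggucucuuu
miR-149-5p: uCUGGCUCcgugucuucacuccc
miR-488-3p: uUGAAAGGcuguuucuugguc

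Libraries held from 800623 to 4486774 miRNA reads, with the fewest in Dicer KO. Cortical progenitor miRNAs, such as miR-9 and miR-92, took from 26.8% to 41.9% of them in the 10 libraries, which fits the labelled tissue. Levels below are counts scaled to a common library size (CPM) by TMM, which sets each library to the bulk of its miRNAs, and no spike-in was used. A loss shared by all miRNAs therefore does not show, and a level is a share of what remained. In whole tissue, fewer cells that express miR-124 and less miR-124 per cell cannot be told apart.

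miR-124-3p was the more abundant arm in all 10 libraries. It had from 752 to 6658 reads per library, or from 0.0743% to 0.331% of the miRNA reads. miR-124-5p had from 113 to 896 reads, or from 0.0141% to 0.0584%. By mean CPM among 557 tested miRNAs, miR-124-3p ranked 80 in Dicer KO, 94 in Dicer WT, 60 in DGCR8 KO, 71 in DGCR8 HET and 68 in DGCR8 WT. miR-124-5p ranked 166, 155, 113, 138 and 126 in the same groups. Both arms were thus moderately abundant at this stage, with the highest ranks in DGCR8 KO.

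miR-124-3p had 1568 and 909.8 CPM in Dicer KO, against 830.1 and 913 CPM in Dicer WT. The first Dicer KO library lay above both wild types and the second lay between them, so the groups overlapped. The means were 1239 ± 466 CPM in Dicer KO and 872 ± 58.9 CPM in Dicer WT (SD, n = 2 each). The log2 fold change was 0.51 ± 0.24 (SE), with a 95% interval from -0.039 to 1.05, and it was not called by edgeR's quasi-likelihood test (adjusted p = 0.138). A miRNA was called at an adjusted p below 0.05, and 30.9% of the tested miRNAs were called in this comparison, 14.9% higher and 16% lower. Without the first Dicer KO library the log2 fold change was -0.024 (adjusted p = 0.929), and without the second it was 0.78 (adjusted p = 0.0259), so the value turned on which of the 2 libraries was kept.

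miR-124-5p had 222 and 137 CPM in Dicer KO, against 206 and 205 CPM in Dicer WT. The Dicer KO libraries fell on either side of the wild types, in the same order as for miR-124-3p. The log2 fold change was -0.19 ± 0.27 (95% interval from -0.79 to 0.41, adjusted p = 0.595). Neither arm was called in Dicer KO, and the intervals leave room for a change of either sign in miR-124-5p.

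miRNAs that mark other cells of the tissue differed in the same comparison, as shares of reads that do not count cells. Vessel and blood miRNAs took 3.36% and 3.95% of the reads in Dicer KO, against 1.27% and 1.02% in Dicer WT, and 10 of the 14 tested were called higher, where 14.9% of all tested miRNAs were. The lead members of that list, such as miR-126a and miR-451a, mark endothelium and red cells. Mesenchymal miRNAs took 0.212% and 0.397% of the reads in Dicer KO, against 0.104% and 0.0650% in Dicer WT. Of the 5 tested, 0 were called higher and 0 lower. Choroid plexus and epithelial miRNAs overlapped, at 0.781% and 2.03% in Dicer KO against 0.329% and 0.917% in Dicer WT. Of the 10 tested, 1 was called higher and 0 lower. The part of these lists in the values of miR-124 was not tested. Scaled to the vessel and blood list in place of TMM, the log2 fold change of miR-124-3p in Dicer KO was -0.92 (adjusted p = 0.0400) and that of miR-124-5p was -1.62 (adjusted p = 0.00124). That scaling put the median of all tested miRNAs at -1.45, so both changes are read against it. Scaled to library totals, which put the median of all miRNAs at 0.22, miR-124-3p was called higher (0.74, adjusted p = 0.0479).

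**Figure D1:**
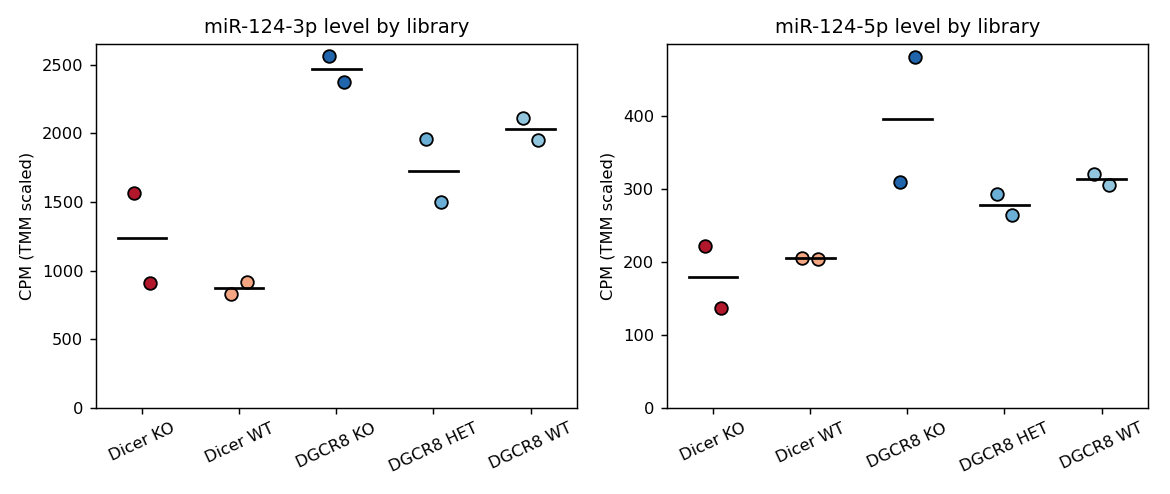
Level of miR-124-3p (left) and miR-124-5p (right) in CPM after TMM scaling, with each point a library and each bar the mean of the 2 libraries of a group. miR-124-3p lies between 830.1 and 1568 CPM in the Dicer line and between 1499.5 and 2564 CPM in the DGCR8 line, where DGCR8 KO lies highest.

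On the TMM scale DGCR8 KO had the highest levels of miR-124-3p among the groups. It had 2564 and 2376 CPM in DGCR8 KO, against 1956 and 1499.5 CPM in DGCR8 HET and 2112 and 1948 CPM in DGCR8 WT. The DGCR8 KO libraries lay above all 4 of the others of that line. The means were 2469.7 ± 133 CPM in DGCR8 KO, 1728 ± 323 CPM in DGCR8 HET and 2029.7 ± 116 CPM in DGCR8 WT (SD, n = 2 each). Against DGCR8 WT the log2 fold change was 0.28 ± 0.24 (95% interval from -0.26 to 0.83, adjusted p = 0.403), and miR-124-3p was not called, where 20.6% of all tested miRNAs were, 8.8% higher and 11.8% lower. Its sign turned when the vessel and blood list set the scale, at -0.050 (adjusted p = 0.940, median of all miRNAs -0.31), and library totals gave 0.70 (adjusted p = 0.0736, median of all 0.43). Against DGCR8 HET it was 0.52 ± 0.24 (95% interval from -0.029 to 1.06, adjusted p = 0.179), where 8.62% were called. That comparison depended on the fit: with the lines fitted apart the value was 0.61 (adjusted p = 0.0422), and on library totals it was 0.91 (adjusted p = 0.0454). Without either Dicer KO library, which enter the shared spread, it was 0.60, with an adjusted p of 0.0460 and 0.0452.

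Markers of other cells also differed in their share of the reads within this line. Vessel and blood miRNAs took 1.08% and 0.966% of the reads in DGCR8 KO, 0.602% and 0.969% in DGCR8 HET and 0.611% and 0.610% in DGCR8 WT. In DGCR8 KO against DGCR8 WT, 2 of the 14 tested were called higher, where 8.8% of all tested miRNAs were. That count is small and was not tested against this share. The second DGCR8 HET library, the lowest of the line for miR-124-3p, also stood apart from the first in mesenchymal miRNAs, at 0.0444% against 0.0044% of the reads, and in choroid plexus and epithelial ones, at 0.557% against 0.104%. Their part in the values of miR-124 was not tested.

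miR-124-5p had 310.4 and 482 CPM in DGCR8 KO, against 293 and 265 CPM in DGCR8 HET and 321 and 306 CPM in DGCR8 WT. Here the second DGCR8 KO library stood above all the others, and the first lay among the wild types. The log2 fold change was 0.34 ± 0.26 against DGCR8 WT (adjusted p = 0.373) and 0.50 ± 0.26 against DGCR8 HET (adjusted p = 0.213). Without the second DGCR8 KO library the change against DGCR8 WT was 0.057 (adjusted p = 0.918), and without the first it was 0.68 (adjusted p = 0.221). Neither arm was therefore called in DGCR8 KO against DGCR8 WT.

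In DGCR8 HET against DGCR8 WT neither arm was called. The libraries overlapped for miR-124-3p, and for miR-124-5p both of DGCR8 HET lay below both of DGCR8 WT. The log2 fold change was -0.23 ± 0.24 for miR-124-3p and -0.17 ± 0.26 for miR-124-5p (adjusted p = 0.993 for each). Among all 557 tested miRNAs the share called was 0% under edgeR's quasi-likelihood test and by DESeq2, while 23 had an unadjusted p below 0.05.

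Whether the arms responded unlike in the 2 lines was tested as the effect in DGCR8 KO minus the effect in Dicer KO. The difference was -0.22 ± 0.34 for miR-124-3p (95% interval from -0.99 to 0.54, adjusted p = 0.750). For miR-124-5p it was 0.53 ± 0.37 (95% interval from -0.31 to 1.37, adjusted p = 0.495). Neither was called, where 2.15% of all tested miRNAs were, and the intervals are wide enough to hold a difference of the size of either effect.

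The lines themselves differed in miR-124-3p. It had 2112 and 1948 CPM in DGCR8 WT, against 830.1 and 913 CPM in Dicer WT, and the groups did not overlap. The log2 fold change was 1.22 ± 0.24 (adjusted p = 0.0206), a 2.33-fold higher level in DGCR8 WT. With vessel and blood miRNAs setting the scale, the log2 fold change was 2.22 (adjusted p = 0.000354), where the median of all miRNAs was 0.88. In this comparison 2.69% of the tested miRNAs were called higher, 4.85% lower and 7.54% in either direction. miR-124-5p had 321 and 306 CPM in DGCR8 WT, against 206 and 205 CPM in Dicer WT. Its groups did not overlap either, and its log2 fold change of 0.61 ± 0.26 was not called (adjusted p = 0.174).

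The call on miR-124-3p rested on all 4 wild types. Without any 1 of them the log2 fold change stayed between 1.21 and 1.32, while the adjusted p lay at 0.0978 and 0.0561 without the Dicer WT libraries in turn, and at 0.160 and 0.126 without the DGCR8 WT libraries in turn. Marker miRNAs of other cell types moved along with the line. Mesenchymal miRNAs took 0.00337% and 0.00297% of the reads in DGCR8 WT, against 0.104% and 0.0650% in Dicer WT, and all 5 tested members were lower in DGCR8 WT. Of the vessel and blood list, 7 of 14 were lower in DGCR8 WT, where 4.85% of all tested miRNAs were. The line cannot be told apart from anything else that differed between these pairs of libraries.

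The balance between the arms was read as miR-124-3p reads per miR-124-5p read, which does not depend on library scaling. It was 7.08 and 6.65 in Dicer KO, against 4.04 and 4.46 in Dicer WT. The groups did not overlap, with more of the 3p arm per read of the 5p arm in Dicer KO. The log2 ratio of 5p to 3p reads differed by -0.69 ± 0.26 (95% interval from -1.30 to -0.075), which limma did not call over the 159 hairpins with both arms (unadjusted p = 0.0325, adjusted p = 0.195), where 1.26% of hairpins were called. The median change over those hairpins was 0.033.

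In the DGCR8 line the ratio was 8.26 and 4.93 in DGCR8 KO, 6.67 and 5.66 in DGCR8 HET and 6.58 and 6.37 in DGCR8 WT. The DGCR8 KO libraries enclosed all the others of their line. The log2 ratio of 5p to 3p reads differed by 0.021 ± 0.26 in DGCR8 KO against DGCR8 WT (adjusted p = 0.976) and by 0.075 ± 0.26 in DGCR8 HET against DGCR8 WT (adjusted p = 0.999). The effect in DGCR8 KO minus that in Dicer KO was 0.71 ± 0.37 (adjusted p = 0.637). limma called 0% of the hairpins in these 3 comparisons, with 13, 6 and 13 of 159 at an unadjusted p below 0.05.

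In reads without added bases, a setting chosen after the values were seen, the arms of Dicer KO stood further apart. There were 2.35 and 2.37 miR-124-3p reads per miR-124-5p read in Dicer KO, against 0.878 and 0.975 in Dicer WT. In Dicer WT the unextended form of miR-124-5p thus slightly outnumbered that of miR-124-3p. The log2 ratio of 5p to 3p reads differed by -1.35 (adjusted p = 0.0346). The call was thus made in these reads and not in all reads. In miR-124-3p such reads had a mean share of 26.3% in Dicer KO and 16.9% in Dicer WT. This ratio therefore includes the change in additions given below and is not a separate sign of an arm shift.

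The 3′ ends of the arms differed from each other far more than between genotypes. In miR-124-3p most reads carried bases beyond the reference end. The share was 73.2% and 74.2% in Dicer KO, against 83.0% and 83.2% in Dicer WT. It was 75.1% and 74.0% in DGCR8 KO, 78.1% and 80.7% in DGCR8 HET and 80.6% and 80.2% in DGCR8 WT. Both knock-outs thus lay below the wild type of their line without overlap, by several percentage points, and DGCR8 HET lay around DGCR8 WT. The Wilson 95% interval of a library's share was at most 3.12 percentage points to either side for miR-124-3p, for counting error only.

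The fall in Dicer KO passed the test. The log2 odds of an addition differed by -0.81 ± 0.13 in Dicer KO against Dicer WT (95% interval from -1.11 to -0.51, limma over 354 miRNAs, adjusted p = 0.00930). Only 3.39% of these miRNAs, 12 in number, were called lower in additions, against 51 called higher (14.4%), and 17.8% were called in either direction. The median over all 354 was 0.22, and 5.65% of them had a lower value than miR-124-3p. The fall therefore ran against the usual direction of change in the same libraries. It was called in all alternatives but 1: without the first Dicer WT library it was -0.82 with an adjusted p of 0.0655.

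In DGCR8 KO against DGCR8 WT the log2 odds differed by -0.49 ± 0.13 (95% interval from -0.79 to -0.19), which had an unadjusted p of 0.00673 and was not called (adjusted p = 0.213). In this comparison limma called 0% of the miRNAs, with 48 of 354 at an unadjusted p below 0.05, and the median of all was 0.0099. In DGCR8 HET against DGCR8 WT the difference was -0.092 ± 0.13 (adjusted p = 0.992), and in DGCR8 KO against DGCR8 HET it was -0.39 ± 0.13 (adjusted p = 0.417). The effect in DGCR8 KO minus that in Dicer KO was 0.32 ± 0.18 (95% interval from -0.10 to 0.75, adjusted p = 0.417), so the fall was not shown to differ between the lines, and 2.26% of miRNAs were called. Between the wild types, the difference of DGCR8 WT from Dicer WT was -0.26 ± 0.13 (adjusted p = 0.499).

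miR-124-5p did not share this pattern of additions. Reads with added bases made 19.4% and 27.4% of the arm in Dicer KO, against 21.8% and 23.0% in Dicer WT. They made 22.3% and 20.8% in DGCR8 KO, 22.7% and 23.9% in DGCR8 HET and 22.8% and 20.6% in DGCR8 WT. The Dicer KO libraries enclosed the other 8 libraries, and they have the fewest reads of this arm, 222 and 113. The log2 odds differed by 0.070 ± 0.22 in Dicer KO (95% interval from -0.45 to 0.59, adjusted p = 0.875) and by -0.015 ± 0.22 in DGCR8 KO (adjusted p = 0.996). No call was made on miR-124-5p in any of the 6 contrasts.

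**Figure D2:**
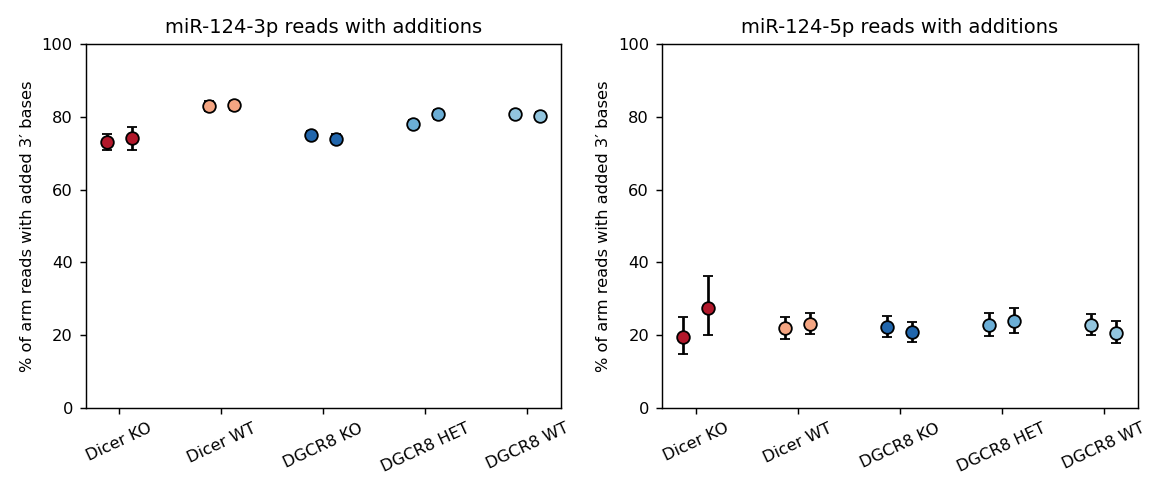
Share of the reads of miR-124-3p (left) and miR-124-5p (right) that carry added 3′ bases, in percent, with each point a library and each bar its Wilson 95% interval. For miR-124-3p both Dicer KO libraries lie at 73.2% and 74.2% and both Dicer WT libraries at 83.0% and 83.2%, while for miR-124-5p the groups overlap.

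**Figure D3:**
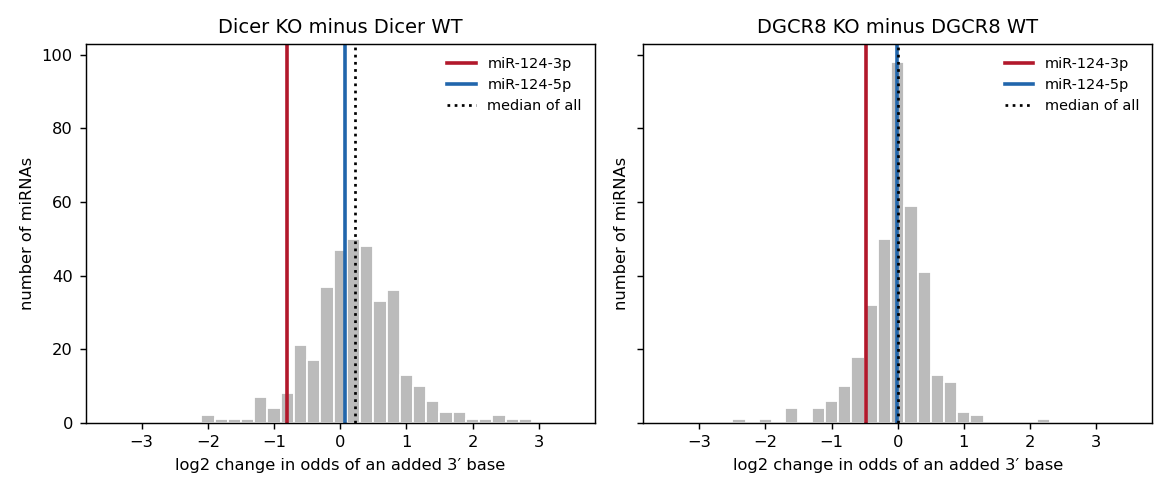
Distribution over 354 miRNAs of the log2 change in the odds of an added 3′ base, in Dicer KO against Dicer WT (left) and in DGCR8 KO against DGCR8 WT (right), with lines at the arms of miR-124 and at the median of all. In Dicer KO miR-124-3p lies at -0.81 and the median at 0.22, and in DGCR8 KO they lie at -0.49 and 0.0099.

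The kinds of addition also set the arms apart. In miR-124-3p most were A. Reads extended by A alone, of any length, made 60.0% of the arm in Dicer KO, 73.2% in Dicer WT, 64.2% in DGCR8 KO, 69.0% in DGCR8 HET and 69.1% in DGCR8 WT. The median over the same 354 miRNAs lay between 3.03% and 3.84%. In miR-124-5p such reads made between 1.11% and 1.51% of the arm, while reads extended by T alone made from 18.9% to 24.8% in the libraries. The table does not mark which added bases are encoded in the hairpin, so templated ends and bases added after cleavage are mixed in these shares.

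Single entries show which forms of miR-124-3p moved. The form with 1 added A was the most frequent and kept a like share, with a mean of 36.9% in Dicer KO, 38.1% in Dicer WT, 39.0% in DGCR8 KO, 37.4% in DGCR8 HET and 38.8% in DGCR8 WT. The form with AA made 21.4% and 21.4% of the arm in Dicer KO, against 31.3% and 33.0% in Dicer WT. It made 21.4% and 23.8% in DGCR8 KO, 27.5% and 29.9% in DGCR8 HET and 27.5% and 27.7% in DGCR8 WT. In either line the knock-outs thus held less of the AA form than the wild types, with no overlap.

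The form without an added base is what remains of the share with additions given above, so it necessarily moved the opposite way. It made 26.8% and 25.8% of the arm in Dicer KO, against 17.0% and 16.8% in Dicer WT. It made 24.9% and 26.0% in DGCR8 KO, 21.9% and 19.3% in DGCR8 HET and 19.4% and 19.8% in DGCR8 WT. The mean number of added bases per miR-124-3p read was 1.19 ± 0.024 in Dicer KO and 1.36 ± 7.1e-05 in Dicer WT, and 1.17 ± 0.011 in DGCR8 KO, 1.29 ± 0.044 in DGCR8 HET and 1.31 ± 0.0054 in DGCR8 WT (SD, n = 2 each). Reads of both knock-outs thus carried fewer added bases on average than those of the wild type of their line. The other named forms were rarer: AAT made from 5.99% to 8.51% of the arm as group means, and AAA from 1.65% to 2.91%.

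**Figure D4:**
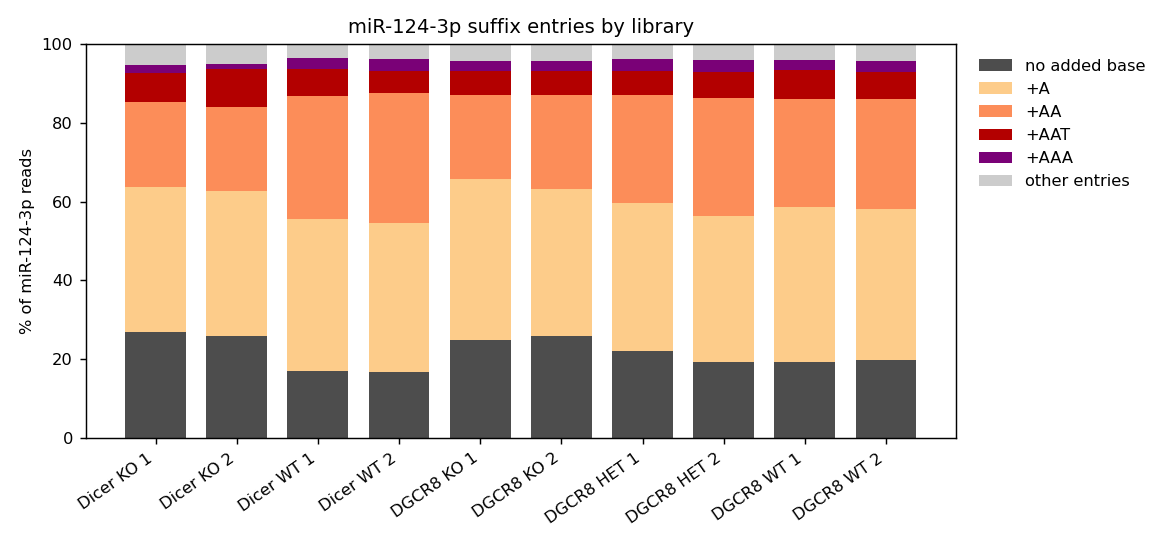
Composition of miR-124-3p reads by 3′ suffix in each library, in percent of the arm, as stacked bars from no added base at the foot to the rarer entries at the top. The AA form narrows to 21.4% in both Dicer KO libraries, against 31.3% and 33.0% in Dicer WT, and the form with no added base widens.

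A fit over all 2169 suffix entries with enough reads gave each form its own level. It tested 9 of the 43 miR-124-3p entries, which held 99.6% of the reads of the arm, and 3 of the 25 miR-124-5p entries, which held 99.7%. Of the rest, 13 entries of miR-124-3p and 14 of miR-124-5p had no read in any library. The 3 tested entries of miR-124-5p were the form without an added base and those with T and with A.

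In Dicer KO against Dicer WT, 4 of the 9 tested miR-124-3p entries were called higher and 0 lower, where 15.2% of all tested entries were called higher. The form without an added base was higher by 1.11 ± 0.29 on the log2 scale (adjusted p = 0.0145), a 2.16-fold level. The AAT form was higher by 0.86 ± 0.23 (adjusted p = 0.0145), the T form by 1.15 ± 0.33 (adjusted p = 0.0218) and the ATT form by 1.93 ± 0.50 (adjusted p = 0.0132). Both ATT and T are minor, with 121 and 690 reads over the 10 libraries. ATT had only 12 and 5 reads in Dicer KO and 6 and 11 in Dicer WT. The T form had 38 and 17 reads in Dicer KO and 39 and 57 in Dicer WT. Of the 4 called entries 3 end in T, as does AT, which was tested and not called by edgeR (adjusted p = 0.0977). The forms with only A were not called, at 0.42 ± 0.27 for A (adjusted p = 0.254), -0.13 ± 0.26 for AA (adjusted p = 0.742) and -0.25 ± 0.37 for AAA (adjusted p = 0.639). None of the 3 tested miR-124-5p entries was called.

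These calls moved with single libraries, as the level of the arm did. The higher calls did not hold without the first Dicer KO library. AA then lay at -0.68, AAA at -1.22 and the form without an added base at 0.51. Fewer entries were called higher without either Dicer WT library. The order of the forms was the same with and without the first Dicer KO library, with the unextended form above A, A above AA and AA above AAA.

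In DGCR8 KO against DGCR8 WT, 0 of the 9 entries were called by edgeR, with 1 at an unadjusted p below 0.05, where 13.8% of all entries were called in either direction. The form without an added base came nearest, at 0.86 ± 0.28 (adjusted p = 0.0651), while the AA form lay at 0.19 ± 0.25 (adjusted p = 0.662). In DGCR8 KO against DGCR8 HET the same forms lay at 0.96 ± 0.28 (adjusted p = 0.0607) and 0.33 ± 0.25 (adjusted p = 0.454), with 6 of the 9 entries at an unadjusted p below 0.05 and 0 called, where 7.56% of all entries were called. In both comparisons, whether an entry was called depended on which library was left out. The effect in DGCR8 KO minus that in Dicer KO reached no call for any entry of either arm, where 3.92% of all entries were called. In DGCR8 HET against DGCR8 WT the share called was 0% over all entries, with 106 of 2169 at an unadjusted p below 0.05.

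Between the wild types, 8 of the 9 miR-124-3p entries were called higher in DGCR8 WT than in Dicer WT, where 2.44% of all entries were. Their log2 fold changes ran from 1.08 for AA to 1.87 for ATT, and the entry not called was AAG at 1.55 (adjusted p = 0.118). These entries are parts of 1 arm in the same libraries, and that arm was itself called higher. The count thus restates the level of the arm and does not hold separate results. Fewer entries were called without any of the wild-type libraries, and without the second DGCR8 KO library, which enters the shared spread. The 3 entries of miR-124-5p were not called.

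**Figure D5:**
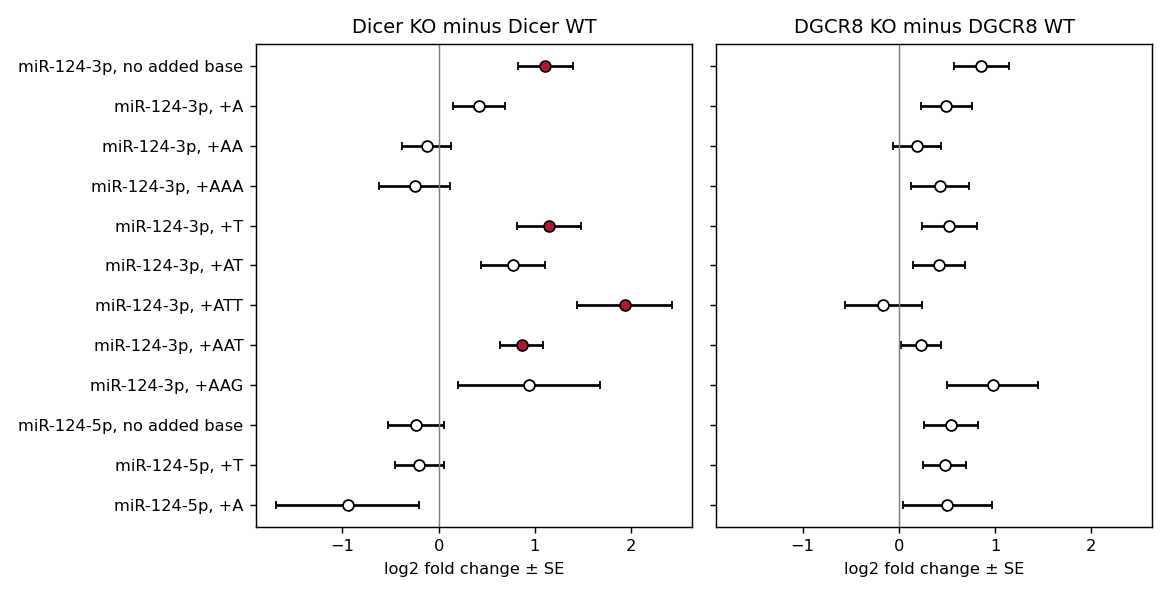
Log2 fold change of each tested suffix entry of miR-124-3p and miR-124-5p, with its SE as a bar, in Dicer KO against Dicer WT (left) and in DGCR8 KO against DGCR8 WT (right), with called entries filled. In Dicer KO the form without an added base lies at 1.11 and the AA form at -0.13, and in DGCR8 KO they lie at 0.86 and 0.19 with no entry called.

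Among the 11 other miRNAs called lower in additions in Dicer KO, named here after their values were seen, miR-23a-3p made 56.1% of its reads with additions in Dicer KO against 75.1% in Dicer WT. The share for miR-151-5p was 43.1% in Dicer KO against 61.8% in Dicer WT, and for miR-1981-3p it was 82.3% against 91.6%. The leading addition of these examples was A. The largest falls were in miR-3068-3p (26.8% against 61.9%) and miR-3093-3p (33.3% against 70.5%), whose leading addition was T. Of all 12, miR-124-3p included, 8 had a leading addition that began with A and 2 one that began with T, where 21.5% and 60.2% of all 354 miRNAs did, and this difference was not tested. Of the neuron-enriched list, 18 members were tested for additions in Dicer KO, of which 2 were called higher and 0 lower, where 14.4% and 3.39% of all miRNAs were.

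By pattern of level over the 10 libraries, miR-138-5p, a brain miRNA that acts in dendritic spines, ran most like miR-124-3p, with a Pearson correlation of log2 CPM of 0.968 among 411 candidates. It had 1995 and 1535 CPM in Dicer KO, 1553 and 1591 CPM in Dicer WT, 4240.2 and 3859.5 CPM in DGCR8 KO, 3272 and 2320.0 CPM in DGCR8 HET and 3025 and 3042 CPM in DGCR8 WT. By group mean, as for miR-124-3p, DGCR8 KO lay highest and the groups of the Dicer line lowest. Next came miR-3059-5p (0.958), miR-136-3p (0.949), miR-551b-3p (0.943) and miR-376a-5p (0.940), of which miR-136 and miR-376a belong to the imprinted cluster of the Dlk1 and Dio3 region. The other arm, miR-124-5p, came at rank 16 (0.848).

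The miRNA most like miR-124-5p was miR-3078-5p, at 0.943, whose gene lies in the host transcript of Mir124a-1. miR-3078-5p had 68.9 and 20.6 CPM in Dicer KO, 49.4 and 47.6 CPM in Dicer WT, 93.2 and 122 CPM in DGCR8 KO, 76.3 and 57.1 CPM in DGCR8 HET and 80.3 and 74.0 CPM in DGCR8 WT. It shared with miR-124-5p a second DGCR8 KO library above the first and a first Dicer KO library above the second. Next came miR-181a-1-3p (0.927), miR-490-3p (0.911), miR-129-5p (0.884) and miR-138-5p (0.873), and miR-124-3p stood at rank 10.

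These correlations are descriptions over libraries that fall into 2 lines, so part of each is the difference between lines. Within the 6 libraries of the DGCR8 line, miR-138-5p still ran at 0.966 with miR-124-3p, and miR-3078-5p at 0.910 with miR-124-5p. The 2 arms of miR-124 ran at 0.617 with each other there. miR-136-3p fell to 0.703 with miR-124-3p and miR-129-5p to 0.525 with miR-124-5p.

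Other neuron-enriched miRNAs went in both directions in the same libraries. Of 31 listed, 26 were tested, and in Dicer KO 3 were called higher and 2 lower, where 14.9% and 16% of all tested miRNAs were. These counts lie near or below the share over all miRNAs. The median log2 fold change was -0.076 in the list and -0.0091 over all miRNAs. miR-153-3p, which targets alpha-synuclein transcripts, was higher by 1.96 ± 0.23 (adjusted p = 0.000388). It had 141 and 151 CPM in Dicer KO, against 33.5 and 41.6 CPM in Dicer WT. miR-137-3p, which acts in neuronal maturation, was higher by 0.94 ± 0.29 (adjusted p = 0.0337), and miR-138-1-3p by 1.55 ± 0.49 (adjusted p = 0.0412). The last rests on few reads, 5 and 6 in Dicer KO and 9 and 6 in Dicer WT. miR-218-5p, a miRNA of motor and other neurons made from introns of Slit genes, was lower, with a log2 fold change of -1.23 ± 0.26 (adjusted p = 0.00704), and so was miR-128-1-5p, at -0.98 ± 0.24 (adjusted p = 0.0129). Without a library in turn, from 1 to 3 of the list were called higher and from 1 to 5 lower, with 5 lower and 1 higher without the first Dicer KO library.

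In DGCR8 KO against DGCR8 WT, 4 of the 26 were called higher and 3 lower, where 8.8% and 11.8% of all tested miRNAs were, with a median of 0.20, and of 0.017 for all. The higher ones were miR-153-3p (0.90 ± 0.21, adjusted p = 0.0243), miR-137-3p (1.08 ± 0.27, adjusted p = 0.0264), miR-129-2-3p (0.79 ± 0.23, adjusted p = 0.0403) and miR-129-1-3p (1.26 ± 0.30, adjusted p = 0.0255). The lower ones were miR-218-5p (-1.22 ± 0.25, adjusted p = 0.0153), miR-128-1-5p (-0.72 ± 0.22, with an adjusted p of 0.0482) and miR-128-2-5p (-1.08 ± 0.30, with an adjusted p of 0.0390). The last rests on few reads, 19 and 9 in DGCR8 KO and 29 and 33 in DGCR8 WT. The 4 most abundant members, miR-128-3p, miR-149-5p, miR-138-5p and miR-488-3p, were called in neither knock-out, as was miR-124-3p. Without any 1 of the DGCR8 KO or DGCR8 WT libraries 0 of the list were called in either direction. Between the wild types, 6 of the 26 were called higher in DGCR8 WT and 0 lower, where 2.69% and 4.85% of all miRNAs were, with a median of 0.47, and of -0.13 for all. The number higher was 1 without either DGCR8 WT library, and 1 and 3 without the Dicer WT libraries in turn.

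The most abundant of them, miR-128-3p, which dampens neuronal excitability, had 4328 and 10589 CPM in Dicer KO, against 9998 and 13877 CPM in Dicer WT. Its first Dicer KO library was the lowest of all 10 libraries, where that library was the higher one for both arms of miR-124. In DGCR8 KO it had 10869.8 and 11538 CPM, against 16322 and 18204 CPM in DGCR8 WT. Its log2 fold changes of -0.68 ± 0.34 in Dicer KO (adjusted p = 0.147) and -0.62 ± 0.33 in DGCR8 KO (adjusted p = 0.217) were not called, and both had the sign opposite to that of miR-124-3p. The cortical progenitor list lay lower in both knock-outs, with 5 of 10 members called lower in Dicer KO, where 16% of all tested miRNAs were, and 6 of 10 in DGCR8 KO, where 11.8% were.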

How the data were processed

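Small RNA of embryonic mouse cortex was sequenced in 2 libraries from each of 5 groups. Per the labels' protocols, each library was prepared with the TruSeq small RNA kit, and per the submitters' processing notes reads were aligned with Bowtie to GRCm38. The mismatch setting and the miRNA annotation used are not stated. The deposited values are raw read counts per miRNA and 3′ suffix. DGCR8 columns were assigned by line and index number, because another number in the column names differs from the one in the descriptions.

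Counts were summed over suffixes and scaled by TMM. Levels were tested with edgeR 4.0.16 (quasi-likelihood, filterByExpr count minimum 10, total minimum 15, 1 mean per group, all 10 libraries), on 557 of 1432 names and 2169 suffix entries. Log2 odds of additions and arm ratios (pseudocount 0.5, mean of at least 5 reads of each kind) were tested with limma 3.58.1. The fit left 5 residual degrees of freedom. For levels per miRNA, edgeR's common coefficient of variation between libraries, beyond counting error, was 0.23. P-values are two-sided and Benjamini-Hochberg adjusted over all features of a contrast, and they measure the spread between 2 libraries per group, pooled over the groups. Replicates were not identical. The steps were tested on simulated data. DESeq2 1.42.0 was an alternative, and R was 4.3.3.

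The members and lists were chosen with earlier results of these data known. The rule for naming took both arms, the 5 most frequent suffix entries of each arm and any called, the 5 miRNAs most alike by Pearson correlation among those averaging 10 CPM or more, and from the neuron-enriched list those called in a knock-out and the 4 most abundant.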

Additional observations from a re-analysis of the deposited data

How the results depend on the processing

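With 2 libraries per group and a first Dicer KO library that differs from the second, small changes in miR-124 could not be resolved. Over 30 results on levels, additions and arm ratios, leaving out a library kept 292 of 300 values on their side of the threshold, with 3 gained and 5 lost calls, and other settings kept 160 of 170, with 9 gained and 1 turned. Most of the 30 results were not called to begin with, so these counts say little about how firm the calls are. The calls lost were those on miR-124-3p in DGCR8 WT against Dicer WT and on its additions in Dicer KO. The cause of these shifts was not tested.

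For miR-124-3p in Dicer KO, scaling to the vessel and blood list turned the change to -0.92 (adjusted p = 0.0400), while library totals gave 0.74 (adjusted p = 0.0479) and reads without additions 1.18 (adjusted p = 0.0123). Leaving out a library gave from -0.024 to 0.78. The vessel and blood scale also brought calls for miR-124-5p in Dicer KO (-1.62) and in the difference of the knock-out effects, DGCR8 KO minus Dicer KO (1.63). It brought another in DGCR8 WT against Dicer WT (1.61). In these contrasts the median of all tested miRNAs reached -1.45, 1.13 and 0.88 over the alternatives. The share called reached 63.2%, 17.1% and 42.5%, so much of each value was a shift of all miRNAs. In DGCR8 KO against DGCR8 HET, library totals gave 0.91 for miR-124-3p (adjusted p = 0.0454) and a call of 0.89 for miR-124-5p (adjusted p = 0.0499), the lines fitted apart gave 0.61 for miR-124-3p, and leaving out a library gave from 0.35 to 0.72. In DGCR8 WT against Dicer WT, miR-124-3p ran from 1.21 to 1.37 without a library, with an adjusted p up to 0.160, and lay at 2.22 on the vessel and blood scale. In DGCR8 KO against DGCR8 WT it ran from -0.050 on that scale to 0.73 in reads without additions and was called under no alternative. The additions of miR-124-3p in Dicer KO ran from -0.85 to -0.77, with an adjusted p up to 0.0655. The arm ratio in Dicer KO was -1.35 in reads without additions, added after seeing the data, and that value includes the change in additions.

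Over all tested miRNAs, the share called ran from 15.1% to 63.2% in Dicer KO and from 0.833% to 31.2% in DGCR8 KO over the alternatives. The share of calls that were higher ran from 1.14% to 67.0% in Dicer KO and from 0% to 88.2% in DGCR8 KO, the highest in each on library totals. The numbers of neuron-enriched miRNAs called ran from 0 to 4 higher and 1 to 17 lower in Dicer KO.

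The replicate numbers did not pair the libraries, with correlations of same-numbered deviations from -0.21 to 0.37. With a replicate block miR-124-3p lay at 0.47 in Dicer KO (adjusted p = 0.133) and its additions at -0.81 (adjusted p = 0.0183), and no call on levels, additions or arm ratio of miR-124 changed. Of its suffix entries, 1 was called higher with the block in DGCR8 KO against DGCR8 WT and 1 against DGCR8 HET, where 0 were called without it. No share over all entries is set beside these counts, so they show only that calls moved.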
